A study of Homo sapiens with 4 samples.

Results

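The 9 genes described here encode subunits of class I phosphoinositide 3-kinase (PI3K) and lipid phosphatases that act on its products. They were taken by symbol from the deposited expression table, where each had 1 row among 61806 genes. They comprise 4 catalytic subunits (PIK3CA, PIK3CB, PIK3CD and PIK3CG), 3 regulatory subunits (PIK3R1, PIK3R2 and PIK3R3) and 2 phosphatases (INPP4B and INPPL1). The cells were JJ012, a human cell line established from chondrosarcoma, which is a malignant tumour that forms cartilage, labelled wild type and grown in a DMEM and α-MEM mixture with fetal bovine serum. A group of 2 untreated libraries, for which the labels name no vehicle, was compared with 2 libraries from cells given 10 µM Antcin K, a triterpenoid of the fungus Antrodia cinnamomea, for 24 h. The series is thus 1 line at 1 dose and 1 time, and its title ties the compound to PI3K, Akt, mTOR and NF-κB signalling and to MMP-7.

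Class I PI3K is a heterodimer of a catalytic p110 subunit and a regulatory subunit, which holds the kinase in check until an activated receptor or adaptor recruits it. The kinase adds a phosphate to a membrane phosphoinositide, and the trisphosphate lipid it makes recruits Akt and other proteins to the membrane. Phosphatases remove phosphates from that lipid or from its breakdown product and so set how long the signal lasts. PIK3CA encodes p110α and PIK3CB encodes p110β, which most tissues express, whereas PIK3CD (p110δ) and PIK3CG (p110γ) are best known from leukocytes.

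The libraries held 16911257 to 26270686 counted fragments. Mitochondrially encoded genes took 26.0% of them in untreated replicate 1, 12.9% in untreated replicate 2, 13.5% in Antcin K replicate 1 and 19.3% in Antcin K replicate 2. The labels do not state whether replicates came from separate cultures, and p-values here therefore reflect the variation among these libraries alone, which could be technical. The defining cartilage collagen gene COL2A1 had 0 counts in all 4 libraries and the proteoglycan gene ACAN had 0 to 4, while SOX9, the master regulator of cartilage, had 112 to 563 counts and the mesenchymal filament gene VIM 49267 to 142854. Of the other cartilage markers, COL11A1 had 25 to 140 counts, and SOX5, SOX6, COL9A1, MATN3 and HAPLN1 had 0 to 22. Of the other mesenchymal markers, THY1 had 13 to 21 counts, and CDH2, COL1A1, COL1A2 and PDGFRB had 67 to 1194. The 9 cartilage markers summed to 2.42 to 6.24 FPKM (per exonic length) untreated and 1.70 to 2.97 FPKM after Antcin K. SOX9 alone held 1.97 to 5.45 and 1.38 to 2.65 FPKM of these sums, and their part in the results was not tested. The leukocyte antigen gene PTPRC had 0 counts in every library. In RNA from whole cultures, fewer cells of a type and less RNA per cell cannot be told apart.

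INPPL1 was the most highly expressed of the 9 genes and PIK3CG was at the limit of detection. Levels of different genes were compared as FPKM, which the authors scaled by exonic length and library total. The deposited exonic length was 17189 bases for PIK3CA, 16323 for PIK3R1 and 9567 for PIK3CD. In GENCODE 29 it was 9494, 10767 and 6332. For PIK3CB it was 7841 against 7850 and for PIK3R3 7397 against 7410. A longer length lowers FPKM, so ranks, shares and ratios that hold PIK3CA, PIK3R1 or PIK3CD depend on the annotation used. Those that hold PIK3R2 are uncertain too, since 87.2% of its exonic bases in GENCODE 29 are shared with another gene. In untreated cells the order by mean FPKM ran from INPPL1 (20.3 ± 2.90, SD, n = 2) through PIK3CB (3.29 ± 0.877), PIK3CD (2.35 ± 0.332), PIK3R3 (2.07 ± 0.170), PIK3CA (0.965 ± 0.884), INPP4B (0.435 ± 0.134), PIK3R1 (0.370 ± 0.0707) and PIK3R2 (0.140 ± 0.0990) to PIK3CG, listed at 0. The ranges of PIK3CD and PIK3R3 overlapped, as did those of PIK3CA and INPP4B and those of INPP4B and PIK3R1, so these neighbours could not be ordered. After Antcin K the top 4 places were held by the same genes, and PIK3CA stood in place 7 of 9, below PIK3R1 (0.285 ± 0.0636) and INPP4B (0.255 ± 0.0636), at 0.180 ± 0.0566 FPKM. The ranges of those 3 genes overlapped between neighbours in that order, as did those of PIK3CD and PIK3R3.

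**Figure D1:**
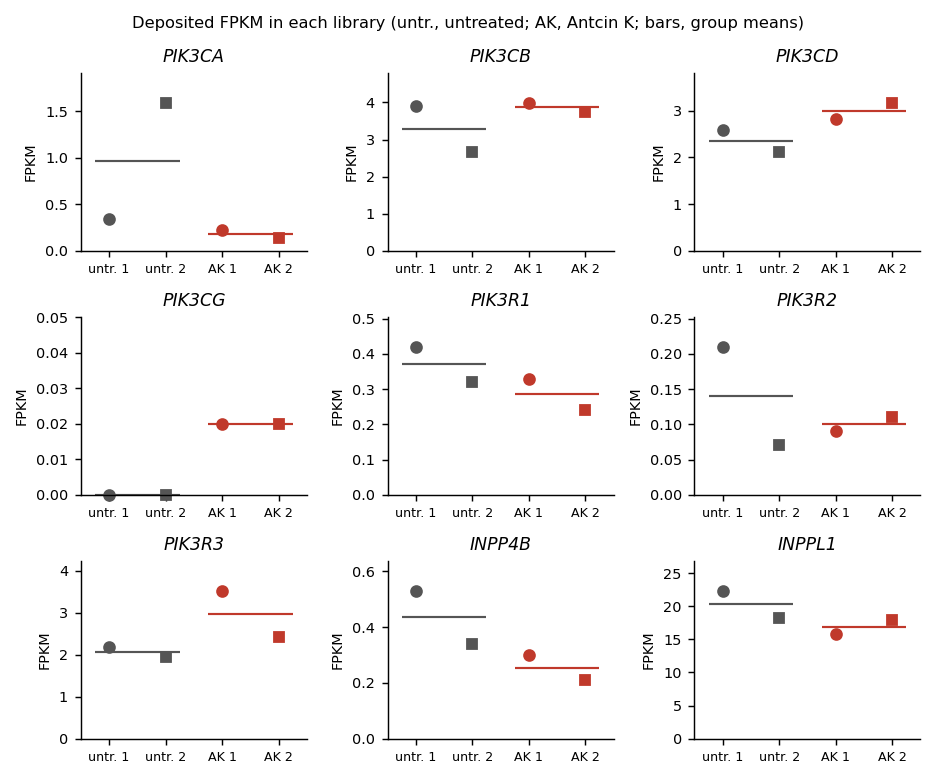
Deposited FPKM (vertical axis, linear from 0, its own scale in each panel) of the 9 genes in untreated replicates 1 and 2 (grey) and Antcin K replicates 1 and 2 (red), with group means as bars. PIK3CA stood at 1.59 FPKM in untreated replicate 2 and between 0.14 and 0.34 in the other 3 libraries.

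Of the 9 genes, 8 passed the count filter and were tested, while PIK3CG did not pass. The mean with Antcin K was lower for 5 of them (53.8% of all genes tested) and higher for 3 (46.2%). Their median log2 fold change was -0.36, against -0.05 over all 14717 genes tested. By edgeR's quasi-likelihood test, with Benjamini-Hochberg adjustment over all genes, 0 of the 8 were called at an adjusted p under 0.05, as were 0 of all genes (0%). At an unadjusted p under 0.05 stood 2 of the 8, PIK3CA and INPP4B, against 12.4% of all genes. PIK3CA alone among them was called by DESeq2 (0.36% of all genes were), by edgeR without the count filter (0.723%) and by edgeR with a replicate block (0.177%). DESeq2 gave no adjusted p to PIK3R2. Both Antcin K libraries lay below both untreated ones for 4 of the 8 (PIK3CA, PIK3R1, INPP4B and INPPL1), where 23.3% of all genes did so. They lay above both for 2 (PIK3CD and PIK3R3), against 22.6% of all genes, and the groups overlapped for PIK3CB and PIK3R2.

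PIK3CA, the gene of the catalytic subunit p110α, had the widest difference of the 8 and the widest gap between libraries of 1 group. Its counts were 154 in untreated replicate 1, 514 in untreated replicate 2, 79 in Antcin K replicate 1 and 41 in Antcin K replicate 2. Untreated replicate 2 was far above the other 3 libraries, and the lower untreated library was nearer to the treated ones than to its own replicate. As CPM, counts scaled to a common library size, the untreated libraries were at 5.80 and 28.8, a 4.97-fold gap, and the Antcin K libraries at 3.66 and 2.45, a 1.49-fold gap. Of the 14717 tested genes, 54, PIK3CA among them, or 0.367%, had untreated libraries at least as far apart in log2 CPM. The fitted log2 fold change of -2.48 (SE 0.67, 95% interval from -4.01 to -0.95), or 5.59-fold lower, had an unadjusted p = 0.00549 and an adjusted p = 0.366 in edgeR, and 28 tested genes had a more negative value. DESeq2 gave an adjusted p = 0.0106. Without untreated replicate 2 the log2 fold change was -0.91 and without untreated replicate 1 it was -3.22, so its size depended on which untreated library was kept. The GC content of its GENCODE 29 transcript, 34.8%, was the lowest of the 8, before INPP4B at 37.2% and PIK3CB at 39.4%, and PIK3R2 had the highest at 64.2%. With a GC trend removed in limma the log2 fold change of PIK3CA was -1.75, against -2.08 in the same fit with the trend kept. Between the same fits, PIK3CB moved from 0.21 to 0.38, PIK3R3 from 0.44 to 0.25, INPPL1 from -0.31 to -0.11 and PIK3R2 from -0.27 to 0.045. INPP4B moved from -0.79 to -0.53, PIK3R1 from -0.41 to -0.29 and PIK3CD from 0.30 to 0.33.

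A letter string known as a binding site of FOXO transcription factors, which Akt keeps out of the nucleus, lay in the RefSeq start window of PIK3CA, shown here because this gene had the widest difference. The string was chosen after the sequence had been seen. It is TGTTTAC, searched on both strands, and it began 149 bases before the RefSeq start site at chr3:179148357, inside the gene as deposited. The 30 bases around it, chr3:179148197-179148226 on the plus strand of GRCh38.p14 from RefSeq, read as follows, with the string in capitals.
PIK3CA: agttcgttgttTGTTTACacgatgtgagcg
All 9 genes had windows of 300 bases in the table, 27 in all, and this was the 1 window with the string. Of all 35116 windows 3.42% held it, and 4.19% of all genes had it in any window. Since the string was picked from this window, these shares do not test its presence there. A match describes letters only, and these libraries measured no binding.

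The 5 tested genes nearest to PIK3CA in pattern were found by the root mean square difference of log2 CPM centred on each gene's mean over the 4 libraries. They were TTC14 (difference 0.205), FAM9B (0.220), WDHD1 (0.330), RAB27B (0.343) and ENSG00000167046 (0.361), against a median of 1.37 over all tested genes. They lie, in that order, on chromosomes 3, X, 14, 18 and 20. The CPM of TTC14 was 5.61 and 19.2 in untreated cells against 2.92 and 2.21 with Antcin K. That of FAM9B was 6.29 and 42.2 against 4.03 and 3.70. All 5 were highest in untreated replicate 2, where PIK3CA was. That peak and the small differences follow from how the 5 were picked. Untreated replicate 2 stood at least 2-fold above each other library for 136 tested genes and at least 3-fold for 28, PIK3CA among both. For untreated replicate 1 the 2-fold count was 414. Over 4 libraries such likeness describes these samples only.

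**Figure D2:**
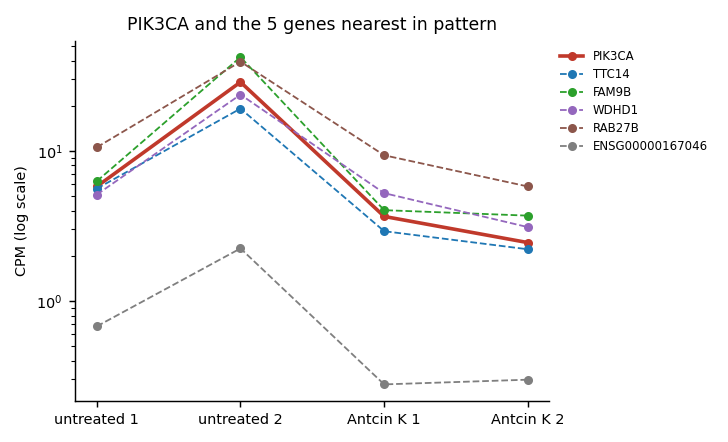
CPM (log scale) of PIK3CA and of the 5 genes nearest to it in pattern, in each of the 4 libraries; lines join the values of a gene and imply no order among libraries. The 5 were picked for likeness to PIK3CA, so the shared peak in untreated replicate 2, where PIK3CA was at 28.8 CPM, follows from that choice.

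PIK3CB, the gene of p110β, which G protein-coupled receptors can also engage, had overlapping groups. It was at 3.91 and 2.67 FPKM in the untreated libraries and 3.99 and 3.75 FPKM after Antcin K. The treated libraries were close to each other and lay within or just above the untreated range. Its log2 fold change of 0.19 (SE 0.25, 95% interval from -0.39 to 0.77) had an adjusted p = 0.779 in edgeR, and it turned to -0.023 without untreated replicate 2.

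PIK3CD, the gene of the leukocyte-enriched p110δ, was measured at a level close to that of PIK3CB. It had 2.58 and 2.11 FPKM untreated and 2.82 and 3.17 FPKM after Antcin K. Both treated libraries were higher, by a log2 fold change of 0.31 (SE 0.24, 95% interval from -0.25 to 0.86), which did not pass the test (edgeR, adjusted p = 0.615). Of 10 leukocyte marker genes PTPRC was at 0, and the list summed to 7.75 and 9.30 FPKM untreated and 8.85 to 8.96 FPKM after Antcin K. Of that sum CORO1A, a coronin gene not restricted to leukocytes, held 4.54 to 7.55 FPKM in the single libraries, and the T cell gene CD3E 0.67 to 2.00. Their part in the PIK3CD level was not tested. PIK3CD overlaps the antisense gene PIK3CD-AS2 (53 counts over the 4 libraries) and the end of CLSTN1 on the opposite strand (4132 counts), and 1.41% of its exonic bases in GENCODE 29 are shared with CLSTN1.

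PIK3CG, the gene of p110γ, which pairs with its own regulatory subunits, had 0 counts in both untreated libraries and 3 in each Antcin K library, or 0.02 FPKM. A count of 0 allows up to 3 counts, or up to 0.0147 and 0.0206 FPKM in the untreated libraries, counting error only. No library had more than 3 counts, and no fold is given. Its partners PIK3R5 and PIK3R6 had 14 to 22 and 0 to 11 counts, and PIK3R5 had a log2 fold change of 0.44 (edgeR, adjusted p = 0.730).

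**Figure D3:**
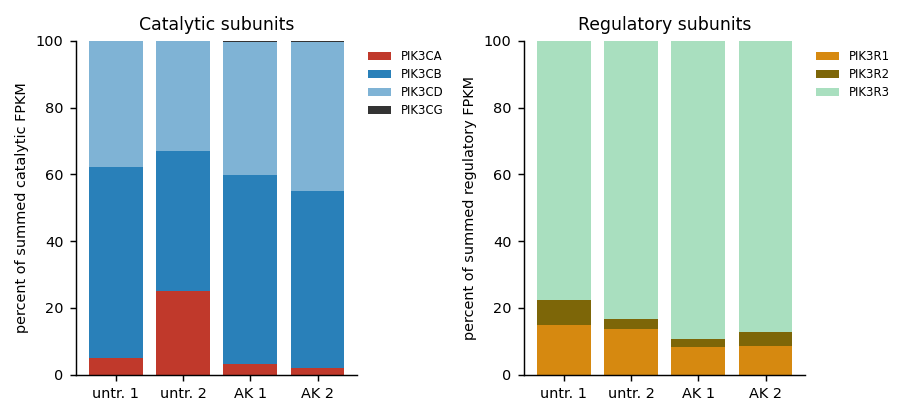
Share of each catalytic gene in the summed catalytic FPKM (left) and of each regulatory gene in the summed regulatory FPKM (right), in percent, for each library (untr., untreated; AK, Antcin K). PIK3CA made up 25.0% of catalytic FPKM in untreated replicate 2 and 1.98% to 4.98% in the other libraries. PIK3R3 had the largest deposited regulatory share in all 4, but the level of PIK3R2 is uncertain because of shared exons.

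Summed over the 4 catalytic genes, the deposited FPKM differed little between libraries, and PIK3CB and PIK3CD carried most of it. The sum was 6.83 and 6.37 FPKM untreated and 7.05 and 7.08 FPKM after Antcin K. PIK3CA held 4.98% of it in untreated replicate 1, 25.0% in untreated replicate 2, 3.12% in Antcin K replicate 1 and 1.98% in Antcin K replicate 2, a mean difference of -12.4 percentage points, or -2.43 without untreated replicate 2. PIK3CB held 41.9% to 57.2% and its groups overlapped, while PIK3CD held 37.8% and 33.1% untreated and 40.0% and 44.8% after Antcin K. From counts with no length correction the mean difference in the PIK3CA share was -19.8 percentage points. In untreated replicate 2 PIK3CA had 514 counts, PIK3CB 393 and PIK3CD 379. The place of PIK3CA in that library thus depends on the exonic length used. With 2 libraries against 2, the smallest two-sided p of an exact permutation test is 0.333, so no p is given for these shares.

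PIK3R3, the gene of the regulatory subunit p55γ, had the highest deposited FPKM of the 3 regulatory genes. PIK3R2 may be undercounted because of shared exons, so its true place among them is not known. PIK3R3 was at 2.19 and 1.95 FPKM untreated and 3.52 and 2.41 FPKM after Antcin K. Both treated libraries were higher and Antcin K replicate 1 the highest. In edgeR its log2 fold change was 0.46 (SE 0.27, 95% interval from -0.15 to 1.07, adjusted p = 0.493), and without Antcin K replicate 1 it was 0.19. The overlapping gene P3R3URF-PIK3R3 shares 17.4% of its exonic bases in GENCODE 29 on the same strand and had 0 counts.

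PIK3R1, the gene of p85α, the regulatory subunit of most tissues and a stabiliser of p110, had a low FPKM in these cells. It had 0.42 and 0.32 FPKM untreated and 0.33 and 0.24 FPKM after Antcin K. On the FPKM scale Antcin K replicate 1 was just above untreated replicate 2 and the groups overlapped, while on the scaled CPM both treated libraries, at 5.09 and 4.00, were below the untreated ones, at 6.74 and 5.43. A log2 fold change of -0.42 resulted (SE 0.32, 95% interval from -1.16 to 0.32, edgeR adjusted p = 0.605), which was -0.23 without Antcin K replicate 2.

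PIK3R2, the gene of p85β, was counted 28 times in untreated replicate 1, 7 times in untreated replicate 2 and 10 times in each Antcin K library. Untreated replicate 1 was above the other 3, which lay together, and the groups overlapped. Its log2 fold change of -0.50 (SE 0.65, 95% interval from -1.99 to 0.99, edgeR adjusted p = 0.774) turned to 0.42 without untreated replicate 1. In GENCODE 29, 87.2% of its exonic bases are also exons of a same-strand protein-coding gene, ENSG00000268173, which had 12 counts over the 4 libraries. How the counting treated fragments that fit both genes is not given in the sources used here, so the low level of PIK3R2 is uncertain.

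Among the regulatory genes the balance between PIK3R3 and PIK3R1 differed between groups in these libraries. PIK3R3 was 5.21 and 6.09 times PIK3R1 in FPKM untreated, and 10.7 and 10.0 times after Antcin K. The 2 groups did not overlap, and the gap between them was wider than the gap within either. A ratio within a library is free of scaling between libraries, but not of a GC trend. The transcript of PIK3R3 has 45.8% GC and that of PIK3R1 40.3%. With a GC trend removed in limma, their log2 fold changes were 0.25 and -0.29. In the same fit with the trend kept they were 0.44 and -0.41. The ratio was chosen with the values known and is given without a test, and how often other gene pairs differ so was not tested. PIK3R1 made up 14.9% and 13.7% of regulatory FPKM untreated and 8.38% and 8.70% after Antcin K. The ratio of summed catalytic to summed regulatory FPKM was 2.42 and 2.72 untreated and 1.79 and 2.57 after Antcin K, so its groups overlapped. The regulatory shares and this last ratio include PIK3R2, whose counted level is uncertain.

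**Figure D4:**
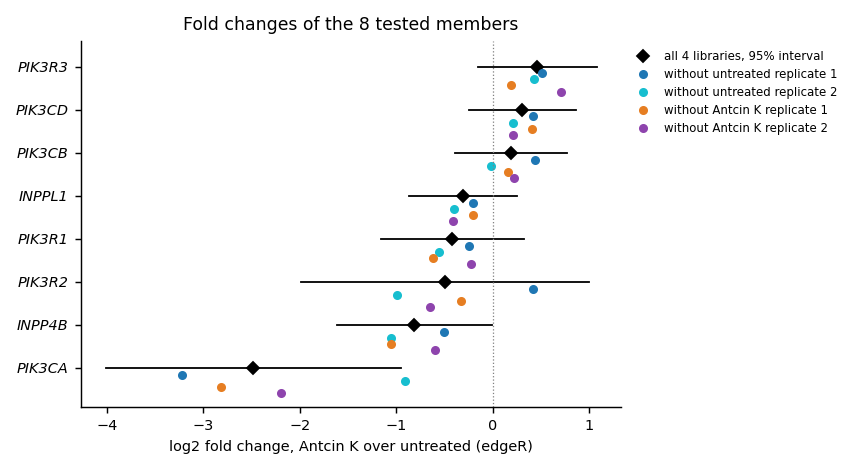
Log2 fold change, Antcin K over untreated, of the 8 tested genes (black diamonds, with 95% intervals from edgeR) and the same value with each library left out in turn (coloured points). The value of PIK3CA ran from -3.22 to -0.91, and that of PIK3R2 crossed 0.

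INPP4B, whose product removes a phosphate from the bisphosphate lipid that also binds Akt, had the second largest difference. It had 0.53 and 0.34 FPKM untreated and 0.30 and 0.21 FPKM after Antcin K, from 201 and 92 against 89 and 52 counts. Both treated libraries were lower, and untreated replicate 1 was the highest. INPP4B was 1.76-fold lower, at a log2 fold change of -0.81 (SE 0.35, 95% interval from -1.62 to -0.01), with an unadjusted p = 0.0474 and an adjusted p = 0.400 in edgeR. The unadjusted p was 0.0438 in edgeR without the count filter, 0.0515 in edgeR with RLE scaling and 0.0650 in DESeq2. It thus lay on both sides of 0.05. Left out in turn, single libraries moved the log2 fold change between -1.06 and -0.50. Its relative INPP4A, with the same substrate, had a log2 fold change of 0.42 (edgeR, adjusted p = 0.482), at 1.78 and 1.48 FPKM untreated and 2.28 and 2.23 FPKM after Antcin K. The fold changes of the 2 genes differed in sign, and the difference between them was not tested.

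INPPL1 encodes SHIP2, which converts the trisphosphate product of PI3K into that bisphosphate. It had 22.3 and 18.2 FPKM untreated and 15.9 and 17.9 FPKM after Antcin K. The treated libraries were lower, although Antcin K replicate 2 was close to untreated replicate 2. This was a log2 fold change of -0.31 (SE 0.25, 95% interval from -0.87 to 0.25), with an adjusted p = 0.618 in edgeR. INPPL1 exceeded the summed catalytic genes 3.27 and 2.86 times in FPKM untreated and 2.25 and 2.53 times after Antcin K, without overlap of the groups. It exceeded INPP4B 42.1 and 53.6 times untreated and 52.8 and 85.4 times after Antcin K, with overlapping groups. Neither ratio was among the planned measures, and neither was tested. The haematopoietic relative INPP5D (SHIP1) had 1 to 11 counts and was not tested.

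Other genes of the pathway lay on both sides of 0. In 5 lists from textbook knowledge, 61 genes, 55 were tested, of which 31 had a higher mean (46.2% of all genes did) and 24 a lower one (53.8%). By edgeR 0 of the 55 were called in either direction (0% of all genes were), and 5 had an unadjusted p under 0.05, where 12.4% of all genes did. Their median log2 fold change was 0.08. Of 9 upstream adaptor genes 5 had a higher mean (median 0.20), but the median was -0.0058 without untreated replicate 1, -0.081 without untreated replicate 2, 0.098 without Antcin K replicate 1 and 0.090 without Antcin K replicate 2. GRB2, which links receptors to Ras and to GAB adaptors, had 66.1 and 77.1 CPM in untreated cells against 111 and 115 with Antcin K (log2 fold change 0.66, edgeR, adjusted p = 0.376), so both treated libraries were higher. CBLB, a ubiquitin ligase gene, had -0.54 (edgeR, adjusted p = 0.429), and the insulin receptor substrate gene IRS2 had -1.04 (edgeR, adjusted p = 0.558) with overlapping groups, at 5.53 and 1.29 CPM in untreated cells against 0.926 and 2.51 with Antcin K.

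Of 14 tested genes of other phosphoinositide kinases, 7 had a higher and 7 a lower mean (median log2 fold change 0.13, with 0.034 without untreated replicate 2, 0.26 without untreated replicate 1, and 0.23 once Antcin K replicate 1 was left out). PIP5K1A, which makes the bisphosphate that class I PI3K uses, had 55.3 and 68.5 CPM in untreated cells against 96.4 and 87.4 with Antcin K (0.57, edgeR, adjusted p = 0.398), and PIP4K2C, whose product phosphorylates another phosphoinositide, also had 0.57 (edgeR, adjusted p = 0.395). The class II kinase gene PIK3C2A had -0.69 (edgeR, adjusted p = 0.439). Of 18 tested genes of other phosphoinositide phosphatases, 12 had a higher and 6 a lower mean (median 0.08, with 0.0091 without Antcin K replicate 1 and 0.14 without Antcin K replicate 2). The inositol 5-phosphatase gene INPP5J had -0.92 (edgeR, adjusted p = 0.387) and OCRL, the phosphatase gene of Lowe syndrome, 0.46 (edgeR, adjusted p = 0.436).

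Of 12 tested effectors that bind these lipids or act on Akt, 5 had a higher and 7 a lower mean (median -0.03). That median turned to 0.064 without untreated replicate 1, 0.096 without untreated replicate 2 and 0.073 once Antcin K replicate 2 was left out, and was -0.0039 without Antcin K replicate 1. CYTH3, an exchange factor gene whose product binds the trisphosphate, had 69.8 and 76.5 CPM in untreated cells against 118 and 106 with Antcin K (0.61, edgeR, adjusted p = 0.377), and its relative CYTH1 had 0.43 (edgeR, adjusted p = 0.476). AKT2 had 169 and 181 CPM in untreated cells against 135 and 137 with Antcin K (-0.36, edgeR, adjusted p = 0.544). Among class I accessory genes, PIK3IP1, whose product restrains p110, had 5.83 and 7.06 CPM in untreated cells against 9.36 and 9.20 with Antcin K (0.53, edgeR, adjusted p = 0.474).

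**Figure D5:**
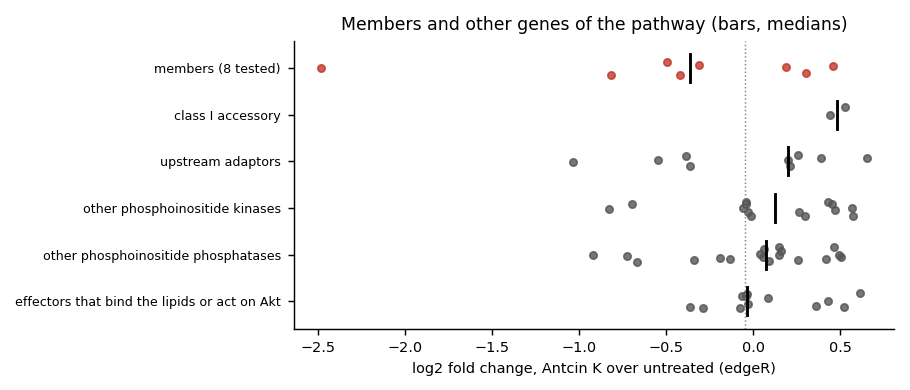
Log2 fold change, Antcin K over untreated, of the 8 tested genes and of 55 other tested genes of the pathway in 5 lists, with medians as bars and the median of all tested genes (-0.05) as a dotted line; vertical scatter within a list is only for legibility. PIK3CA, at -2.48, was the lowest point, and the other values lay between -1.04 and 0.66.

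Sequence shared with other genes bears on the PIK3CA counts as well. In GENCODE 29, 35.8% of its exonic bases are also exons of KCNMB3 on the opposite strand, which had 2 counts over the 4 libraries. A PIK3CA transcript of 9093 bases aligned over 2715 bases at 98.2% identity to the pseudogene KCNMB3P1 and over 488 bases at 97.5% to the pseudogene ENSG00000233995, both on chromosome 22 and both with 0 counts. The part of these stretches in the PIK3CA counts was not tested. PIK3CB, PIK3CG and PIK3R1 share no exonic base with another gene in that annotation, and INPP4B and INPPL1 share under 1%. The 9 genes, with deposited positions on hg38, lie on chromosomes 3 (PIK3CA, ENSG00000121879, 179148114 to 179240093, plus strand; PIK3CB, ENSG00000051382, 138652698 to 138834928, minus), 1 (PIK3CD, ENSG00000171608, 9629889 to 9729114, plus; PIK3R3, ENSG00000117461, 46040140 to 46133036, minus), 7 (PIK3CG, ENSG00000105851, 106865278 to 106908980, plus), 5 (PIK3R1, ENSG00000145675, 68215740 to 68301821, plus), 19 (PIK3R2, ENSG00000105647, 18153163 to 18170532, plus), 4 (INPP4B, ENSG00000109452, 142023160 to 142847432, minus) and 11 (INPPL1, ENSG00000165458, 72223701 to 72239147, plus).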

How the data were processed

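HTSeq 0.6.1, HISAT2 2.2.1, cutadapt 1.9.1 and build hg38 are named, without role or order, by the submitters' processing notes. The annotation release and the strand setting are not given in those notes or the labels. The authors deposited raw counts per Ensembl gene and FPKM scaled by exonic length and library total; recomputed FPKM lay within 0.005 of each deposited value. The 9 genes and the lists were chosen with earlier results of these data known. Counts were scaled by TMM and fitted in edgeR 4.0.16 (robust quasi-likelihood fit, R 4.3.3), group as the only term, on 14717 of 61806 genes past filterByExpr (minimum count 10), with Benjamini-Hochberg adjustment over all of them. Alternatives used DESeq2 1.42.0, limma 3.58.1, other scalings and filters, a replicate block, removal of a GC trend (GENCODE 29 transcripts) and each library left out. Shared exons came from GENCODE 29 and copies from blastn alignments of at least 200 bases at 95% identity. All 9 genes, up to 3 genes by lowest p in each list and the 5 nearest to PIK3CA were named by rule. The rule also covered genes overlapping a member, of which only some are named. The marker genes, PIK3R6, INPP5D and the pseudogenes on chromosome 22 were named outside the rule. The replicates of a group differed by more than counting noise (chi-square per gene 166 and 34.8).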

Additional observations from a re-analysis of the deposited data

How the results depend on the processing

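PIK3CA kept its direction in every setting and was called in edgeR without the count filter (adjusted p = 1.30e-06), in DESeq2 (0.0106) and in the fit with a replicate block (0.0203), where its log2 fold change was -2.09. Without the filter 28764 genes were fitted, and its log2 fold change was -2.44, close to the -2.48 of the main fit. Why the adjusted p was so much lower there was not tested. Its value ran from -3.22 to -0.91 over the settings that leave out a library, with adjusted p from 4.91e-26 to 0.169, but there the lone library of a group is assumed to vary like the others. Those settings called 3 to 3971 of all genes and 0 to 2 of the 8 (PIK3CA and INPP4B). Both maxima came from the setting without untreated replicate 2, where 3971 of 14717 genes were called. INPP4B was called in that setting only, at a log2 fold change of -1.06. Its call there therefore does not set it apart from genes in general. Counts of genes called were 208 without the filter, 53 in DESeq2 and 26 with the block, where 1 of the 8, PIK3CA, was called each time. Same-numbered libraries deviated in opposite directions (r = -0.32 across genes), so the numbers are no evidence of pairing; the crossed block, added after seeing the data, called 1430 genes and 1 of the 8. PIK3CB ran from -0.023 to 0.44 and PIK3R2 from -0.997 to 0.42 with libraries left out: PIK3CB turned to -0.023 without untreated replicate 2, and PIK3R2 to 0.045 after removal of the GC trend and 0.42 without untreated replicate 1; the cause was not tested. With log2(FPKM + 1) and a minimum of 0.5, PIK3CA had -0.66, since a pseudocount shrinks low genes. The PIK3CA share difference ran from -22.4 to -2.43 percentage points with single libraries left out, and was -19.8 from counts with no length correction. List medians moved as follows. With libraries left out they ran from 0.38 to 0.59 for accessory genes, -0.081 to 0.10 for adaptors, 0.034 to 0.26 for kinases, 0.01 to 0.14 for phosphatases and -0.0039 to 0.10 for effectors. After removal of the GC trend they were 0.37 for accessory genes, 0.11 for adaptors, -0.017 for phosphatases and 0.16 for effectors. With log2(FPKM + 0.1) and a minimum of 0.5 they were 0.28 for adaptors, 0.32 for kinases, 0.17 for phosphatases and 0.10 for effectors, with log2(FPKM + 1) and that minimum 0.087 for effectors, and without a minimum 0.22 for accessory genes and 0.090 for adaptors. Adaptors had 0.26 with library totals only. Effectors had 0.040 in voom and 0.045 with either block and in limma-trend on log2 CPM, also added after seeing the data. Depth limits PIK3CG and PIK3R2, with 0 to 28 counts.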
